A study of Mus musculus with 93 samples.

Results

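129S1/SvImJ is a classical inbred laboratory strain of Mus musculus domesticus, and its livers were compared between a western diet (WD) and a control diet (CD). The members are the 13 samples labelled with that strain, 6 on WD and 7 on CD, of 93 liver samples from 7 strains. All the mice were male, the labels name no transgene or deletion, and from 6 wk of age they were kept at 30°C, the thermoneutral temperature of mice. Feeding of WD or CD began at an age of 7 wk and lasted 17 wk, and the mice were killed at 24 wk after a short fast, with the liver perfused. By energy WD held 40% fat, 17% protein, and 43% carbohydrate, and CD held 10%, 17%, and 73%. The CD mice were thus warm-housed too, so the comparison isolates the diet and not the temperature. Each sample is the liver RNA of a separate mouse. Cohort 3 held 3 mice on WD and 3 on CD, and cohort 5 held 3 on WD and 4 on CD.

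As background, a diet rich in fat and sugar loads hepatocytes with lipid, and in part of the exposed animals the liver then accumulates macrophages and lymphocytes and lays down collagen, the course called steatohepatitis. Hepatocytes sense cholesterol through the SREBP2 pathway, which switches the enzymes of cholesterol synthesis on when sterol is scarce and off when it is plentiful, and they sense insulin and carbohydrate through SREBP1c and ChREBP, which act on fatty acid synthesis. Macrophages that enter a fatty liver from the blood differ from the resident Kupffer cells, and those that gather around lipid-laden cells carry their own set of markers, among them Trem2, Gpnmb, and Cd9.

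Between 40020424 and 47795742 reads per mouse lay on genes (median 46523444). The share of reads that did not map was 3.34 to 6.21%, and RNA integrity numbers were 7.7 to 9.2. The log2 expression profiles of any pair of the 13 mice correlated across genes with r between 0.975 and 0.992. The first principal component held 42.84% of the variance and put the 7 CD mice between -43.1 and -30.0 and the 6 WD mice between 32.2 and 51.6, so no mouse stood with the wrong diet. The 12 hepatocyte markers checked, Alb and Apoa1 among them, were all measured, with a summed level of 121600 to 154700 reads per 1000000 (CPM) on CD and 100600 to 124300 on WD. Of these markers 6 fell and none rose on WD with the limma-voom test described next, or 3 fell with upper-quartile scaling.

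To determine which transcripts the diet altered, the counts of 19110 genes were compared with limma-voom, with cohort as a covariate and Benjamini-Hochberg adjustment over all genes. At an adjusted p below 0.05, WD changed 5622 genes, which is 29.4% of those tested. Of these, 2873 were higher (15.0% of genes tested) and 2749 lower (14.4%) on WD, a share of 51.1% higher. With upper-quartile scaling in place of TMM, 5292 genes changed and 65.74% of them were higher (3479), so the balance of increases and decreases depended on the scaling. In 16.4% of all genes the ranges of the 6 WD and the 7 CD mice did not overlap, with WD above in 9.23% and below in 7.18%. Within cohort 3 alone, with 3 mice a group, 1441 genes changed, and within cohort 5 alone 3594 did. Fold changes below are log2 values, WD minus CD, each with its standard error (SE) and its limma-voom p adjusted over all genes, and levels are CPM after TMM scaling, which take no account of gene length and are compared between mice and not between genes.

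**Figure D1:**
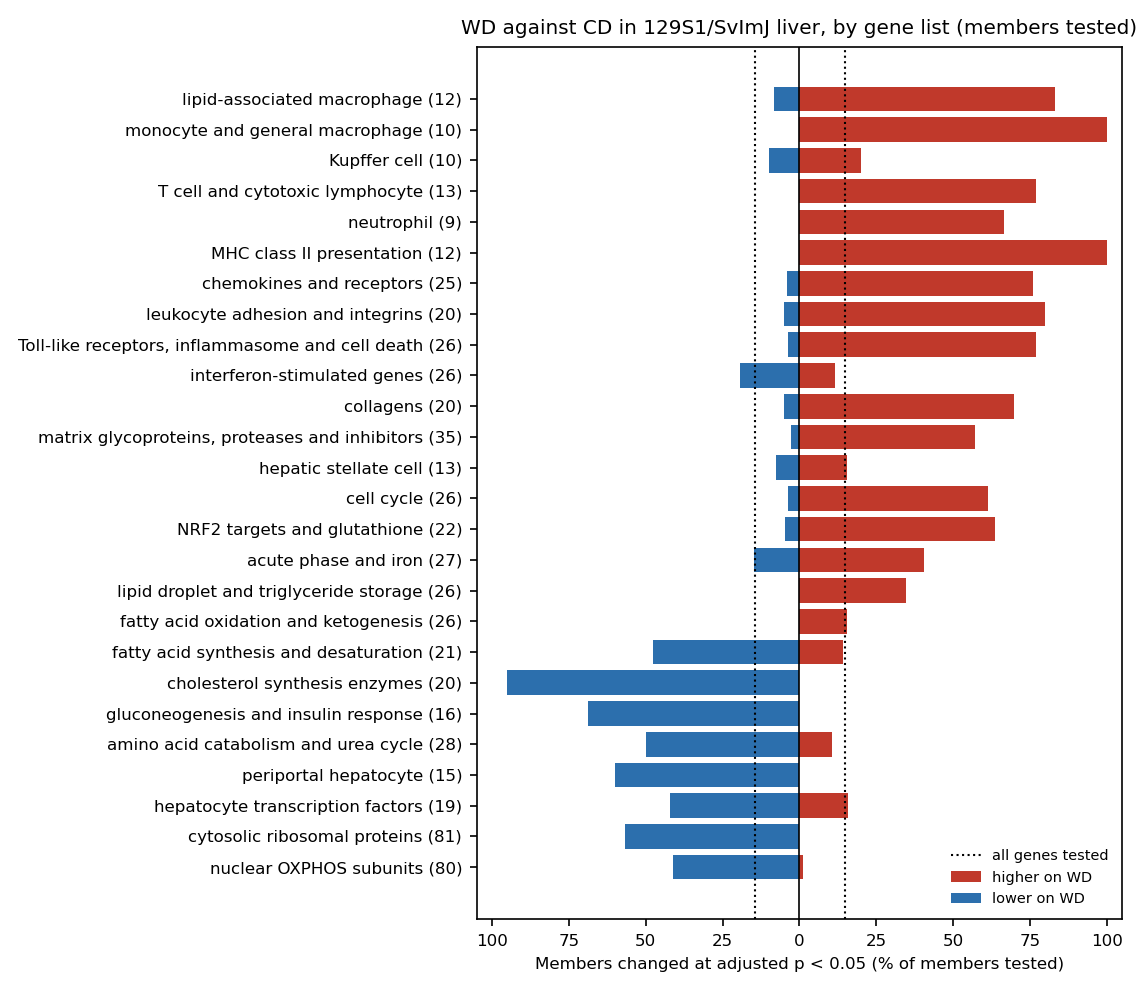
Share of the tested members of 26 gene lists that changed on WD in 129S1/SvImJ liver (limma-voom adjusted p below 0.05), higher to the right in red and lower to the left in blue, in % of members tested. Dotted lines mark the share over all 19110 genes (15.0% higher, 14.4% lower), and the number of members tested stands beside each list. The monocyte and MHC class II lists reach 100% higher and the cholesterol synthesis list 95% lower.

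Macrophage genes gave some of the largest increases. Of 12 markers of lipid-associated macrophages, 10 rose and 1 fell on WD (median log2 fold change 2.09, against -0.004 over all genes), where 15.0% of all genes rose. The summed level of the 12 markers was 59.9 to 110.5 CPM on CD and 148.6 to 261.2 CPM on WD. In bulk liver RNA, more cells of a type and more RNA per cell cannot be told apart.

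Gpnmb (ENSMUSG00000029816, GRCm38 chr6:49036546-49070929, plus strand), which encodes a transmembrane glycoprotein of lysosome-rich macrophages, lay between 0.0425 and 0.589 CPM on CD (median 0.248) and between 10.7 and 31.6 CPM on WD (median 24.3). Every WD mouse stood far above every CD mouse, where only 2 to 28 reads were counted per mouse. Its log2 fold change was 6.51 (SE 1.20, adjusted p = 1.6e-05), the largest among the genes named by the rule for increases. Mmp12 (ENSMUSG00000049723, chr9:7344381-7369499, plus strand) encodes macrophage elastase, a protease that cleaves elastin, and it overlaps Mmp1b on the opposite strand. It lay between 0.231 and 0.492 CPM on CD (median 0.330) and between 12.8 and 36.1 CPM on WD (median 28.9). The groups were widely apart, with a log2 fold change of 6.29 (SE 0.88, adjusted p = 4.3e-08). Trem2, a lipid-sensing receptor, lay between 0.0421 and 0.173 CPM on CD, from 2 to 8 reads per mouse, and between 1.10 and 3.26 CPM on WD. Its groups did not overlap either (log2 fold change 4.55, SE 0.79, adjusted p = 5.1e-06).

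Itgax, the gene of the integrin CD11c (ENSMUSG00000030789, chr7:128129547-128150657, plus strand), went from 0.340 to 0.537 CPM on CD (median 0.418) to between 4.28 and 11.5 CPM on WD (median 9.00). The lowest WD mouse was thus well above the highest CD mouse, and the log2 fold change was 4.29 (SE 0.48, adjusted p = 1.5e-10). The chemokine receptor gene Cx3cr1 rose by 3.59 (SE 0.51), the lectin gene Lgals3 by 2.35 (SE 0.32), the osteopontin gene Spp1 by 1.51 (SE 0.30), and the lysosomal Cd68 by 1.33 (SE 0.19), each without overlap between the diets. The exceptions in the list were Cd9, a tetraspanin, which did not pass the test (log2 fold change -0.05, adjusted p = 0.87), and Fabp5. Fabp5, a fatty acid carrier that other liver cells express too, was the member that fell, from between 12.1 and 45.4 CPM to between 7.05 and 14.0 CPM (log2 fold change -1.66, SE 0.37, adjusted p = 0.00034), with 4 of the 6 WD mice below all CD mice.

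All 10 markers of monocytes and macrophages in general rose (median log2 fold change 1.29). Ccr2, the receptor by which monocytes leave the bone marrow and reach inflamed tissue, lay between 1.13 and 2.21 CPM on CD and between 6.95 and 14.1 CPM on WD. The 6 WD mice were all above the CD range (log2 fold change 2.69, SE 0.26, adjusted p = 8.2e-13). For the resident Kupffer cell markers the counts were near those of all genes. Of 10 such markers, 2 rose (20.0%) and 1 fell (10.0%), where 15.0% and 14.4% of all genes did (median 0.25). Their summed level was 600.6 to 782.3 CPM on CD and 689.1 to 864.9 CPM on WD. Clec4f, a lectin made by Kupffer cells, lay between 46.7 and 85.3 CPM on CD (median 68.9) and between 59.7 and 90.3 CPM on WD (median 74.6). Those ranges overlap almost entirely, and the test was not passed (log2 fold change 0.12, SE 0.20, adjusted p = 0.72). Neither did the phagocytic receptor genes Timd4 (0.42, SE 0.31, adjusted p = 0.32) and Vsig4 (0.33, SE 0.20, adjusted p = 0.21) pass. Marco, a scavenger receptor of the same list, lay between 0.319 and 6.195 CPM on CD (median 1.19) and between 2.42 and 7.52 CPM on WD (median 5.01). All WD mice were above 6 of the 7 CD mice, the exception being CD replicate 7, and the call depended on the test (limma-voom 1.77, SE 0.77, adjusted p = 0.072, against adjusted p = 0.015 with edgeR and 0.0054 with DESeq2). Cd5l, a scavenger protein of tissue macrophages, was the Kupffer marker with the larger of the 2 increases, 0.87 (SE 0.23, adjusted p = 0.0024), with all 6 WD mice above the CD mice.

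**Figure D2:**
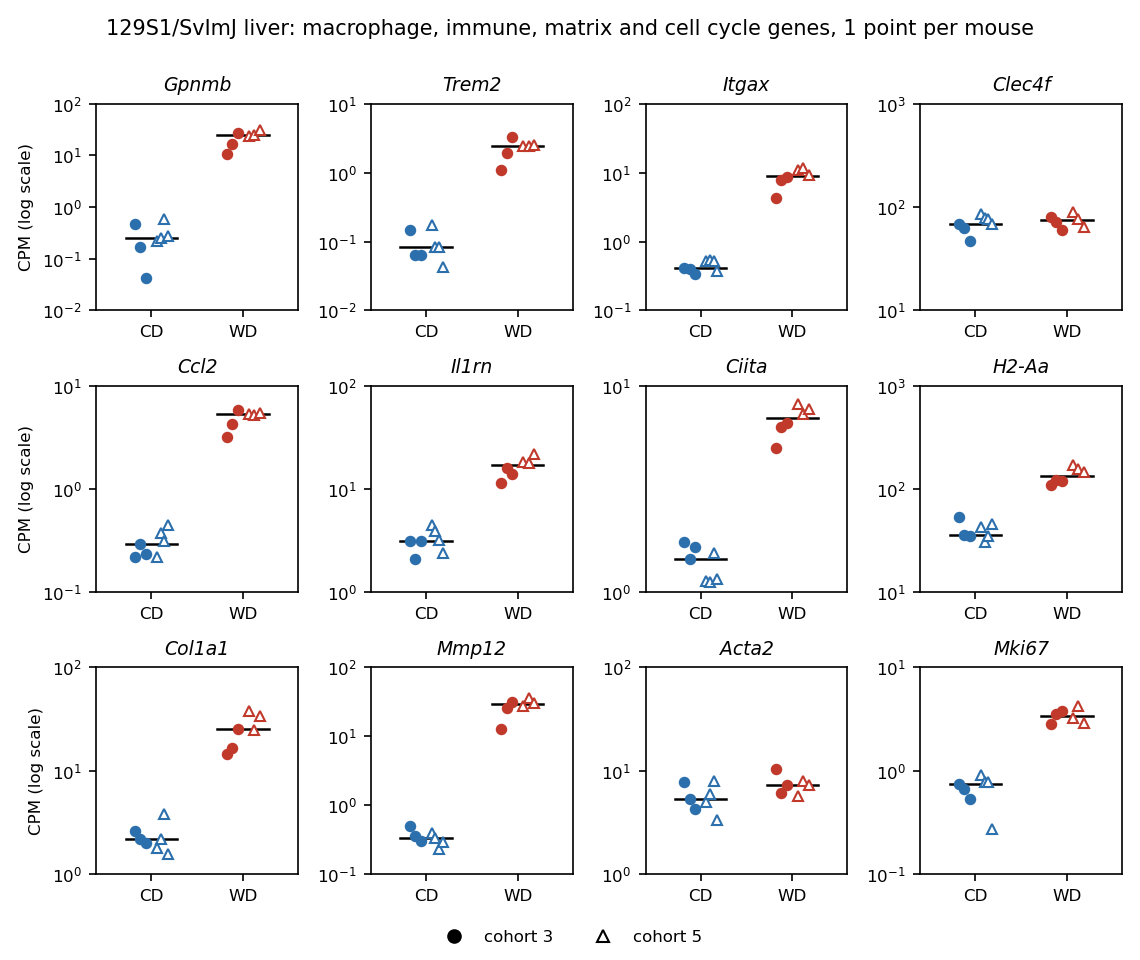
Levels of 12 genes in each 129S1/SvImJ mouse (CPM, log axis), with CD in blue and WD in red, filled circles for cohort 3, open triangles for cohort 5, and a bar at the median of each diet. The diets are separate for Gpnmb, Trem2, Itgax, Ccl2, Il1rn, Ciita, H2-Aa, Col1a1, Mmp12, and Mki67, and overlap for Clec4f and Acta2.

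Lymphocyte and neutrophil markers rose from very low levels. Of 13 markers of T cells and cytotoxic lymphocytes, 10 rose and none fell (median 1.33), and their summed level went from 3.13 to 5.27 CPM on CD to between 6.69 and 11.2 CPM on WD. Cd3e, a chain of the T cell receptor complex, lay between 0.147 and 0.394 CPM on CD and between 0.373 and 0.887 CPM on WD. Only the lowest WD mouse reached into the CD range (log2 fold change 1.43, SE 0.31, adjusted p = 0.00019). Gzma, which encodes a granzyme of cytotoxic cells, lay between 0.0213 and 0.252 CPM on CD, or 1 to 12 reads per mouse, and between 0.255 and 0.726 CPM on WD. The ranges just failed to touch, and the log2 fold change was 2.30 (SE 0.50, adjusted p = 0.00019). The calls depended on pooling the cohorts: with cohort 3 alone 0 of the 13 markers passed limma-voom and with cohort 5 alone 8 did, although the median was 1.17 and 1.73 in those cohorts. In the NK cell list 3 of 5 markers rose, among them the receptor gene Ncr1 (log2 fold change 2.65, SE 0.44, adjusted p = 2.3e-06), with 1 to 4 reads per CD mouse. In the neutrophil list 6 of 9 rose, among them the calprotectin gene S100a9 (2.35, SE 0.53, adjusted p = 0.00042). In the B cell list 1 of 10 rose, a share close to the 15.0% of all genes.

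The chemokine and adhesion genes that guide these cells rose as well. Of 25 chemokines and chemokine receptors, 19 rose and 1 fell (median 1.88). Ccl2, the ligand of CCR2 (ENSMUSG00000035385, chr11:82035571-82037453, plus strand, overlapping Gm17268 on the opposite strand), lay between 0.217 and 0.443 CPM on CD (median 0.294) and between 3.18 and 5.74 CPM on WD (median 5.25). All WD mice were several times above the highest CD mouse (log2 fold change 4.00, SE 0.39, adjusted p = 8.2e-13). Cxcl9, which attracts T cells through CXCR3, lay between 5.75 and 9.71 CPM on CD and between 23.0 and 40.6 CPM on WD. Its diets were separate, with a log2 fold change of 2.12 (SE 0.34, adjusted p = 8.3e-07). Ccl5 rose by 2.13 (SE 0.44), and the neutrophil attractant gene Cxcl2 by 4.05 (SE 0.47) from 1 to 6 reads per CD mouse. Cxcl12, a homeostatic chemokine, was the member that fell, from between 286 and 444 CPM to between 215 and 264 CPM (log2 fold change -0.54, SE 0.10, adjusted p = 2.3e-05), without overlap. Among 20 adhesion molecules and integrins, 16 rose and 1 fell (median 1.00). Vcam1, an endothelial ligand for leukocytes, rose from between 8.55 and 13.4 CPM to between 22.9 and 33.3 CPM. The diets were again apart (log2 fold change 1.31, SE 0.20, adjusted p = 2.9e-07). Sele, the E-selectin gene, rose by 3.62 (SE 0.43, adjusted p = 7.4e-10), with 1 to 4 reads per CD mouse.

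Of 26 genes of Toll-like receptors, the inflammasome, and inflammatory cell death, 20 rose and 1 fell (median 0.95). Il1rn, which encodes the antagonist of the interleukin-1 receptor, lay between 2.12 and 4.51 CPM on CD (median 3.10) and between 11.3 and 21.6 CPM on WD (median 16.8). There was no overlap, and the log2 fold change was 2.42 (SE 0.30, adjusted p = 2.1e-09). Tnf, the classical inflammatory cytokine gene, rose by 3.67 (SE 0.52, adjusted p = 6.7e-08) from 0 to 8 reads per CD mouse, and the inflammasome sensor gene Nlrp3 by 1.53 (SE 0.22, adjusted p = 5.9e-08). Il1b, an inflammasome product, did not pass: its range of 1.62 to 8.66 CPM on CD overlapped that of 3.29 to 11.3 CPM on WD (log2 fold change 0.84, SE 0.38, adjusted p = 0.089). Without CD replicate 7, the highest CD mouse, Il1b passed. Il18, whose product the inflammasome also cleaves, was the member that fell (log2 fold change -0.36, SE 0.10, adjusted p = 0.0034).

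Transcripts of antigen presentation through MHC class II rose as a complete list. The list includes Cd40, Cd80, Cd86, and Ctss, which are counted wherever class II genes are given out of 12. All 12 members tested were higher on WD (median 1.73), where 15.0% of all genes rose. For 11 of the members the diets did not overlap, where 9.23% of all genes lay higher on WD without overlap. The summed level of the 12 members was 159.8 to 251.1 CPM on CD and 521.1 to 851.2 CPM on WD. Ciita, the transactivator that switches class II genes on (ENSMUSG00000022504, chr16:10480059-10528418, plus strand, overlapping Dexi on the opposite strand), lay between 1.11 and 1.75 CPM on CD (median 1.45) and between 5.01 and 8.14 CPM on WD (median 6.94). The lowest WD mouse exceeded the highest CD mouse, and the log2 fold change was 2.30 (SE 0.28, adjusted p = 1.8e-09). H2-Aa, the alpha chain of the I-A molecule, lay between 30.8 and 53.1 CPM on CD and between 109 and 172 CPM on WD. H2-Eb1, the beta chain of I-E, went from between 17.2 and 32.3 CPM to between 71.3 and 122.9 CPM. Both genes were separated by diet, with log2 fold changes of 1.80 (SE 0.26, adjusted p = 1e-07) and 2.01 (SE 0.26, adjusted p = 7.7e-09). Dendritic cells, which carry class II, had 3 of 7 markers higher, and the part of the cell markers in the class II increase was not tested.

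The promoters of H2-Aa and H2-Eb1 are printed because class II genes share a conserved upstream module, one element of which is the Y box, bound by NF-Y. Shown are the 150 bases before the RefSeq start on the coding strand, from the GRCm38.p6 build, with the Y box letters TGATTGG in capitals. Only windows that held these letters were eligible to be shown. The H2-Aa sequence is chr17:34287824-34287973 (minus strand) and that of H2-Eb1 chr17:34305717-34305866 (plus strand).
H2-Aa: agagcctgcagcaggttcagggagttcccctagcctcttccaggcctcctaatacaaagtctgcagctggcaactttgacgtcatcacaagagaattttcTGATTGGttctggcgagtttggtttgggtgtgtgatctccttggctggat
H2-Eb1: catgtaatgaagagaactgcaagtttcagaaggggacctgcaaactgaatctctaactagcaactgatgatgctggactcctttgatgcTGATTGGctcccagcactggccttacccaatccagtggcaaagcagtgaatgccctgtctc

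Searched on both strands over the 250 bases before the start, TGATTGG was found in 4 of the 7 class II list genes in the promoter table (57.1%) and in 8.38% of the table's 27025 genes. The letters contain ATTGG, the reverse complement of the general CCAAT box, which 37.5% of all genes held. The match is a description of these windows and not a test of NF-Y.

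Most collagen and matrix genes rose, although the summed level of each list overlapped between the diets. Of 20 collagen genes, 14 rose and 1 fell (median 0.84). Their summed level was 1328 to 1687 CPM on CD and 1391 to 1650 CPM on WD. Col1a1, the major fibrillar collagen of scar tissue (ENSMUSG00000001506, chr11:94936224-94953042, plus strand), lay between 1.56 and 3.85 CPM on CD (median 2.17) and between 14.6 and 37.8 CPM on WD (median 25.1). Every WD mouse was above every CD mouse, and the log2 fold change was 3.52 (SE 0.56, adjusted p = 8.8e-07). Col3a1, its partner in young scar, went from between 9.08 and 14.1 CPM to between 36.4 and 64.7 CPM, also without overlap (log2 fold change 2.21, SE 0.33, adjusted p = 1.6e-07). Among 35 matrix glycoproteins, proteases, and inhibitors, 20 rose and 1 fell (median 0.78). The summed level of this list was 2447 to 3012 CPM on CD and 2525 to 2932 CPM on WD. Timp1, an inhibitor of matrix metalloproteinases, rose by 4.69 (SE 0.69, adjusted p = 1.4e-07) from 1 to 6 reads per CD mouse, and the collagenase gene Mmp13 by 5.16 (SE 0.72, adjusted p = 5.3e-08) from 0 to 4 reads. Timp1 overlaps Syn1 on the opposite strand. Lox, the enzyme that cross-links collagen, rose by 2.72 (SE 0.56, adjusted p = 9.6e-05). Mmp14, a membrane-bound metalloproteinase, was the member that fell (log2 fold change -0.73, SE 0.15, adjusted p = 9.4e-05).

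Hepatic stellate cells are the main source of liver collagen. Of 13 markers of these cells, 2 rose (15.4%) and 1 fell (7.69%), near the 15.0% and 14.4% of all genes (median 0.17). The summed level of these markers was 423.0 to 488.1 CPM on CD and 404.6 to 440.5 CPM on WD. The part of stellate cells in the collagen increase was not tested. Acta2, the smooth muscle actin of activated stellate cells, lay between 3.31 and 7.93 CPM on CD and between 5.66 and 10.4 CPM on WD. The ranges overlapped, and the test was not passed (log2 fold change 0.42, SE 0.24, adjusted p = 0.17). Lrat, an enzyme of vitamin A storage in quiescent stellate cells, did not pass either (0.26, SE 0.15, adjusted p = 0.20). Of 23 genes of TGF-beta and PDGF signalling, 7 rose (30.4%) and 5 fell (21.7%), against 15.0% and 14.4% of all genes (median 0.17). Among the ligands, Tgfb1 rose by 0.70 (SE 0.13, adjusted p = 1.7e-05), Tgfb3 by 1.15 (SE 0.35, adjusted p = 0.0075), and Pdgfb by 1.46 (SE 0.26, adjusted p = 9e-06), each without overlap between the diets.

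Of 26 cell cycle genes, 16 rose and 1 fell (median 1.01). Mki67, a marker of dividing cells, lay between 0.274 and 0.911 CPM on CD (median 0.738) and between 2.83 and 4.23 CPM on WD (median 3.39). No WD mouse came near the CD range (log2 fold change 2.41, SE 0.54, adjusted p = 0.00036). Ccnd1, the cyclin that drives entry into the cycle, rose by 1.59 (SE 0.35, adjusted p = 0.00024), with the lowest WD mouse at 13.3 CPM and the highest CD mouse at 12.9 CPM. Rrm2, a subunit of ribonucleotide reductase, was the member that fell (log2 fold change -0.71, SE 0.17, adjusted p = 0.00099). In the cholangiocyte list 3 of 10 markers rose (30.0%, against 15.0% of all genes). The keratin gene Krt23 did so in all 6 WD mice (2.20, SE 0.43, adjusted p = 4.1e-05), whereas Krt19 was called by a narrow margin (1.09, SE 0.43, adjusted p = 0.047), with WD replicate 2 at 11.68 CPM and the median WD mouse at 1.095 CPM. Its call was lost when any of 8 mice was left out (adjusted p up to 0.46, limma-voom).

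The enzymes of cholesterol synthesis fell as a block. Of 20 enzymes from acetyl-CoA to cholesterol, 19 were lower on WD and none was higher (median -0.94), where 14.4% of all genes fell. Without overlap of the diets 18 of the enzymes were lower, against 7.18% of all genes. Their summed level was 1749 to 2296 CPM on CD and 1175 to 1415 CPM on WD. Sqle, squalene epoxidase, the first oxygen-requiring step (ENSMUSG00000022351, chr15:59315077-59331192, plus strand), lay between 33.1 and 93.7 CPM on CD (median 46.1) and between 9.72 and 13.5 CPM on WD (median 12.4). The highest WD mouse was well below the lowest CD mouse, and the log2 fold change was -2.13 (SE 0.31, adjusted p = 1.6e-07). Idi1, which isomerizes isopentenyl diphosphate, went from between 15.0 and 32.1 CPM to between 4.48 and 6.33 CPM. Again no WD mouse reached the CD range (log2 fold change -2.11, SE 0.28, adjusted p = 1.7e-08). Idi1 overlaps Gm48574 on the opposite strand. Fdps, farnesyl diphosphate synthase, fell by 1.94 (SE 0.30), Mvd by 1.27 (SE 0.33), and Mvk by 0.69 (SE 0.18). Hmgcs1, which makes HMG-CoA in the cytosol, lay between 42.4 and 95.5 CPM on CD and between 29.5 and 45.3 CPM on WD. The 2 ranges met at their ends, and the fall of 0.75 (SE 0.26, adjusted p = 0.022) was no longer called without CD replicate 5 (adjusted p = 0.068).

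Of 20 genes of sterol sensing, uptake, and efflux, 2 rose and 8 fell (median -0.08). Insig1, which encodes a protein that holds SREBP in the endoplasmic reticulum, lay between 165.5 and 257.3 CPM on CD and between 51.2 and 92.3 CPM on WD, without overlap (log2 fold change -1.51, SE 0.22, adjusted p = 1.2e-07). Srebf2, the gene of SREBP2 itself, fell by 0.49 (SE 0.10, adjusted p = 0.00013). Abcg1, a cholesterol exporter and target of the oxysterol receptor LXR, rose from between 6.18 and 7.22 CPM to between 12.6 and 16.8 CPM. That increase of 1.17 (SE 0.15, adjusted p = 5.9e-09) left no overlap.

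The promoters of Hmgcs1, Mvk, and Mvd are shown because genes of sterol synthesis are known for promoters that pair a sterol regulatory element with a CCAAT box. They are the 150 bases before the RefSeq start on the coding strand in GRCm38.p6, and none overlaps an annotated exon of its own gene. Only windows that held a match were eligible to be shown. Capitals mark CCAAT or its reverse complement ATTGG, and in Hmgcs1 also TCACNCCAC, the letters of the element searched. The windows are chr13:119690201-119690350 (plus strand), chr5:114444119-114444268 (plus strand), and chr8:122443423-122443572 (minus strand).
Hmgcs1: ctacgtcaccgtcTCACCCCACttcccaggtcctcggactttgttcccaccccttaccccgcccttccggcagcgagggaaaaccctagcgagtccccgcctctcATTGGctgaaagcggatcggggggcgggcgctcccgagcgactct
Mvk: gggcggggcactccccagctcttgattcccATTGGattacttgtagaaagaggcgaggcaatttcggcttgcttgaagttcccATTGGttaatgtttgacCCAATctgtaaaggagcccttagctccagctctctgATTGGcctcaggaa
Mvd: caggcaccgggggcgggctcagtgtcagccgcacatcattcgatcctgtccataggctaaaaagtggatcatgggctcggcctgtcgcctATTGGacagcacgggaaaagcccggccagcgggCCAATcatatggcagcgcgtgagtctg

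The CCAAT letters, searched on both strands over 250 bases, were present in 14 of the 15 synthesis enzymes in the promoter table (93.3%, all but Acat2) and in 37.5% of all genes. TCACNCCAC was found in 1 of the 15 (Hmgcs1, 6.67%), in 1 of the 7 class II list genes (14.3%), and in 1.22% of all genes. The longer Y box letters, which include ATTGG, were present in 10 of the 15 (66.7%). A match is no proof of a site, and the absence of these letters says nothing of SREBP.

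**Figure D3:**
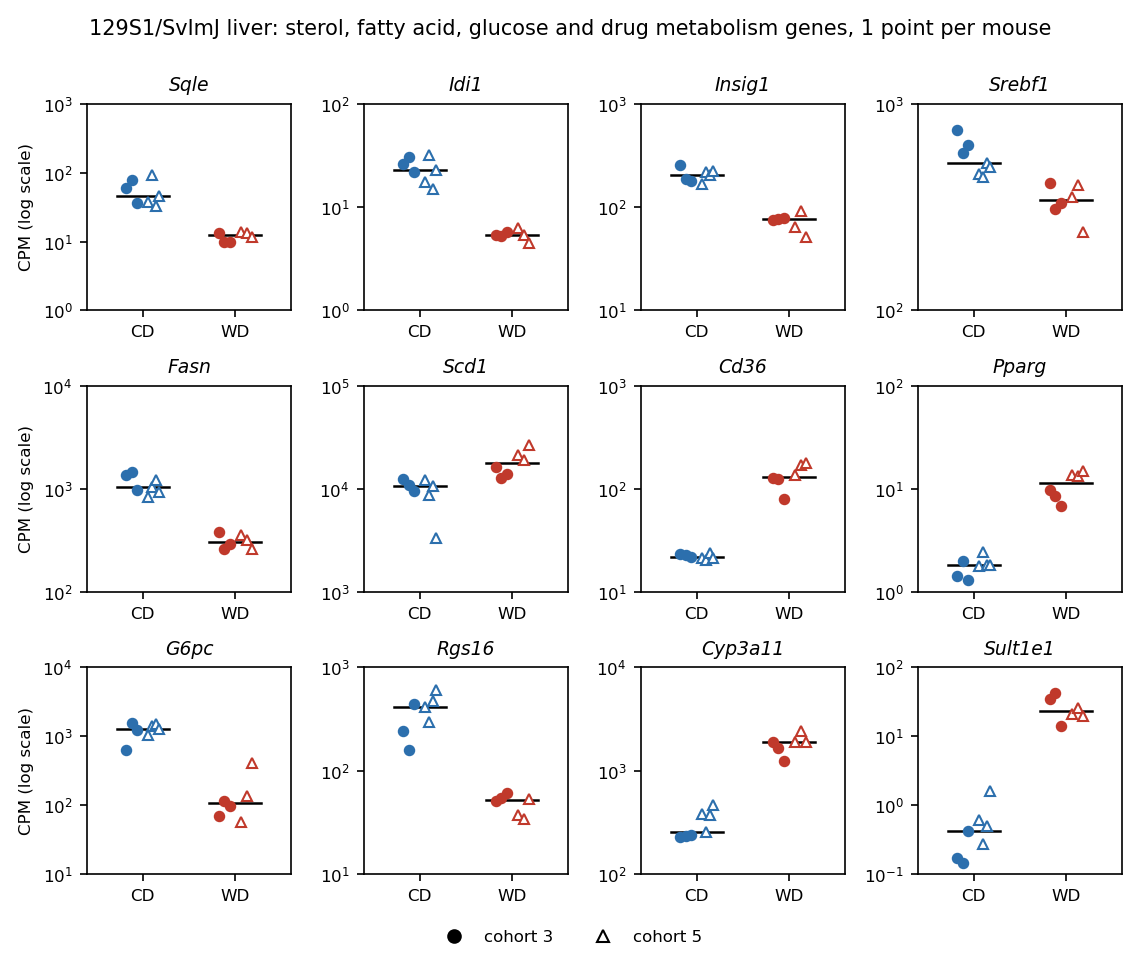
Levels of 12 metabolic genes in each 129S1/SvImJ mouse (CPM, log axis), drawn as in the plot of immune genes, with CD in blue, WD in red, filled circles for cohort 3, open triangles for cohort 5, and a bar at the median. The WD mice lie below the CD mice for Sqle, Idi1, Insig1, Srebf1, Fasn, G6pc, and Rgs16, and above them for Scd1, Cd36, Pparg, Cyp3a11, and Sult1e1.

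Fatty acid synthesis was split. Of 21 genes, 3 rose and 10 fell (median -0.65). Fasn, fatty acid synthase, lay between 835 and 1454 CPM on CD (median 1032) and between 259 and 378 CPM on WD (median 307). All WD mice were below all CD mice, and the log2 fold change was -1.84 (SE 0.29, adjusted p = 9.9e-07). Acly, which supplies cytosolic acetyl-CoA, fell by 1.47 (SE 0.26, adjusted p = 1e-05), and the elongase gene Elovl6 by 1.25 (SE 0.23, adjusted p = 1.4e-05). Srebf1, the gene of SREBP1c, the insulin-responsive activator of this pathway (ENSMUSG00000020538, chr11:60199089-60222581, minus strand, overlapping Rai1 on the opposite strand), lay between 440 and 743 CPM on CD (median 518) and between 240 and 416 CPM on WD (median 342). The highest WD mouse was just under the lowest CD mouse, with a log2 fold change of -0.71 (SE 0.24, adjusted p = 0.017), and the adjusted p was 0.056 without WD replicate 6. Among the 3 genes that rose were the desaturases Scd1 and Scd2, which turn saturated into monounsaturated fatty acids. Scd1 lay between 3335 and 12320 CPM on CD and between 12610 and 26630 CPM on WD. The ranges were adjacent without touching (log2 fold change 0.97, SE 0.29, adjusted p = 0.0065). Scd2 rose by 1.21 (SE 0.28, adjusted p = 0.0005).

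Of 26 genes of lipid droplets and triglyceride storage, 9 rose and none fell (median 0.27). Cd36, a fatty acid uptake receptor, lay between 20.5 and 24.0 CPM on CD (median 21.97) and between 80.0 and 179 CPM on WD (median 131). The CD mice were tightly grouped and every WD mouse was far above them (log2 fold change 2.59, SE 0.22, adjusted p = 1.1e-14). Pparg, the nuclear receptor of fat storage, went from between 1.32 and 2.44 CPM to between 6.86 and 15.0 CPM, also separate (2.65, SE 0.36, adjusted p = 2e-08). Mogat1, an acyltransferase of triglyceride synthesis, rose by 4.53 (SE 0.56, adjusted p = 2.5e-09), the droplet protein gene Fitm1 by 3.01 (SE 0.45, adjusted p = 3e-07), and Fabp4 by 1.33 (SE 0.28, adjusted p = 0.00013). Plin2, the commonest coat protein of liver droplets, did not pass (log2 fold change 0.29, SE 0.28, adjusted p = 0.48), with CD mice between 205 and 537 CPM and WD mice between 331 and 528 CPM. Cidec, which fuses droplets, had 6 of 6 WD mice above the CD mice but did not pass limma-voom (1.54, SE 0.69, adjusted p = 0.082), although edgeR (adjusted p = 0.015) and DESeq2 (adjusted p = 0.0073) called it, and it ranged from 4.45 to 19.8 CPM among the WD mice. Cidea had 0 to 4 reads per CD mouse and was not called (adjusted p = 0.56). Fatty acid oxidation and ketogenesis genes moved little: 4 of 26 rose, which is near the 15.0% of all genes, and none fell (median 0.10).

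Genes of glucose output were lower. Of 16 genes of gluconeogenesis and the insulin response, none rose and 11 fell (median -0.51). G6pc, glucose-6-phosphatase, the last step of glucose release (ENSMUSG00000078650, chr11:101367561-101377903, plus strand), lay between 629 and 1570 CPM on CD (median 1292) and between 56.9 and 410 CPM on WD (median 106). WD replicate 6 was the highest on WD and still below the CD range, and the log2 fold change was -3.32 (SE 0.37, adjusted p = 1.3e-10). Pck1, the other main gluconeogenic enzyme gene, overlapped between the diets, with 3 of 6 WD mice below all CD mice (log2 fold change -0.98, SE 0.25, adjusted p = 0.0016). Igfbp1, an insulin-repressed secreted protein, fell by 2.04 (SE 0.49, adjusted p = 0.0008), with 5 of 6 WD mice below the CD mice. Slc2a2, the glucose transporter GLUT2, fell by 0.41 (SE 0.12, adjusted p = 0.008). Ppp1r3b, which targets protein phosphatase to glycogen, went from between 199 and 494 CPM to between 54.8 and 203 CPM. Of the 6 WD mice, 5 were below every CD mouse (log2 fold change -1.77, SE 0.28, adjusted p = 9.2e-07).

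Amino acid and periportal genes were lower too. Of 28 genes of amino acid catabolism and the urea cycle, 3 rose and 14 fell (median -0.24), or 10 fell with upper-quartile scaling. Arg1, the arginase of the urea cycle, lay between 1245 and 1540 CPM on CD and between 775 and 1014 CPM on WD. Those ranges were apart (log2 fold change -0.70, SE 0.08, adjusted p = 7.4e-10). Tat, tyrosine aminotransferase, fell by 1.54 (SE 0.30, adjusted p = 4.9e-05), with 5 of 6 WD mice below the CD mice, and the serine dehydratase gene Sds fell by 1.09 (SE 0.22, adjusted p = 9.2e-05). Sds overlaps Gm15690, a gene on the opposite strand that fell by 2.48 (SE 0.50), so their reads cannot be told apart unless the counting used strand. Oat, ornithine aminotransferase, a pericentral enzyme whose gene overlaps Fgfr2 on the same strand, rose by 1.02 (SE 0.19, adjusted p = 2.3e-05), without overlap of the diets. Among 15 genes of periportal hepatocytes none rose and 9 fell (median -0.52), and among 15 of pericentral hepatocytes 5 rose and 1 fell (median -0.01). The summed hepatocyte markers given above were lower on WD in the same mice, and their part in these decreases was not tested.

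Slc38a5, a transporter of glutamine and other neutral amino acids (ENSMUSG00000031170, chrX:8271133-8280179, plus strand), gave the largest decrease among the genes named by the rule. It lay between 7.25 and 12.9 CPM on CD (median 9.54) and between 0.4929 and 1.04 CPM on WD (median 0.627). The diets were far apart and each group was narrow, with a log2 fold change of -3.82 (SE 0.23, adjusted p = 1e-22). Rgs16, a regulator of G protein signalling that responds to feeding, lay between 158 and 600 CPM on CD and between 33.8 and 60.9 CPM on WD. The groups did not meet (log2 fold change -2.85, SE 0.57, adjusted p = 6.3e-05), and the overlapping antisense gene Gm28513 fell by 2.52 (SE 0.39). Enho, which encodes the secreted peptide adropin, fell by 2.31 (SE 0.36, adjusted p = 6.8e-07), and the protease gene Prss8 by 2.21 (SE 0.30, adjusted p = 3e-08), both without overlap.

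Of 23 genes of bile acid synthesis and transport, 3 rose and 5 fell (median -0.09). Slc10a1, the NTCP transporter that takes bile acids up from blood, lay between 1188 and 1385 CPM on CD and between 656 and 822 CPM on WD. Both groups were narrow and apart (log2 fold change -0.80, SE 0.19, adjusted p = 0.0006). Cyp7a1, the rate-limiting enzyme of bile acid synthesis, ranged from 175 to 1010 CPM on CD and from 261 to 681 CPM on WD and was not called (0.32, SE 0.57, adjusted p = 0.73). Of 19 hepatocyte transcription factors, 3 rose (15.8%, near the share of all genes) and 8 fell (42.1%, median -0.19). Hnf4a fell by 0.31 (SE 0.11, adjusted p = 0.026), a call lost when any of 5 mice was left out (adjusted p up to 0.077), while Foxa2 rose by 0.97 (SE 0.21, adjusted p = 0.00027), with 5 of 6 WD mice above the CD range.

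Most genes of drug metabolism did not pass the test, whereas most of the NRF2 response rose. Of 30 cytochrome P450 genes and regulators of drug metabolism, 6 rose (20.0%, near the 15.0% of all genes), 1 fell, and 23 were not called (median 0.29). Cyp3a11, the main steroid and drug hydroxylase of mouse liver, whose close paralogs can share its reads (ENSMUSG00000056035, chr5:145854426-145879964, minus strand), lay between 226 and 462 CPM on CD (median 254) and between 1228 and 2439 CPM on WD (median 1900). The diets were clearly separate (log2 fold change 2.64, SE 0.24, adjusted p = 3.6e-14). Cyp2a5 rose by 1.54 (SE 0.37, adjusted p = 0.00083) and its near-identical neighbour Cyp2a4 fell by 1.93 (SE 0.58, adjusted p = 0.0073), both without overlap, and reads may be divided between them unevenly. Of 22 genes of the NRF2 response and glutathione, 14 rose and 1 fell (median 0.57). The glutathione transferase gene Gsta1 rose by 4.60 (SE 0.92, adjusted p = 6.6e-05) from 1 to 9 reads per CD mouse. The cystine transporter gene Slc7a11 rose by 3.19 (SE 0.57, adjusted p = 1.1e-05) from 1 to 12 reads. Hmox1, heme oxygenase 1, lay between 14.4 and 21.1 CPM on CD and between 28.5 and 42.3 CPM on WD, separate groups (0.92, SE 0.20, adjusted p = 0.00015). Nqo1, a quinone reductase, rose by 0.68 (SE 0.24, adjusted p = 0.024), and the adjusted p was 0.059 without WD replicate 3.

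Acute phase and iron genes were mixed. In a list of 27 such genes, 11 rose, 4 fell, and 12 were not called (median 0.13). Saa1, Saa2, and Saa3 encode serum amyloid A proteins and are paralogs that can share reads. Saa2 lay between 4.55 and 57.4 CPM on CD and between 72.3 and 150.3 CPM on WD. Although CD replicate 4 was far above the other CD mice, no WD mouse reached down to it (log2 fold change 3.36, SE 0.81, adjusted p = 0.00077). Lcn2, a siderophore-binding protein of the acute phase, went from between 4.25 and 18.4 CPM to between 78.7 and 126 CPM, well apart (3.44, SE 0.55, adjusted p = 1.1e-06). Hamp, which encodes hepcidin, the hormone that limits iron uptake (ENSMUSG00000050440, chr7:30942368-30944032, minus strand), lay between 520 and 804 CPM on CD (median 615) and between 45.6 and 242 CPM on WD (median 169). The WD mice were all under the CD mice, and the log2 fold change was -2.26 (SE 0.45, adjusted p = 7.1e-05). Its paralog Hamp2 fell by 1.38 (SE 0.37, adjusted p = 0.0024), with overlapping groups.

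The share of gene reads on the 13 protein genes of the mitochondrial genome was 8.22% ± 0.266 (SD, n = 7) on CD and 8.25% ± 0.461 (SD, n = 6) on WD. The difference of 0.0259 percentage points was smaller than the spread between mice (two-sided exact permutation test, p = 0.9). Of the 13 genes, 1 fell (7.69%, against 14.4% of all genes) and none rose. Nuclear genes of the respiratory chain were lower by small amounts: of 80 subunits 1 rose and 33 fell (median -0.12), or 2 and 16 with upper-quartile scaling. The same held for 81 cytosolic ribosomal proteins, of which none rose and 46 fell (median -0.18), or 0 and 19 with upper-quartile scaling, and for 77 mitochondrial ribosomal proteins, of which 1 rose and 26 fell (median -0.09), or 3 and 15. Rpl3, a protein of the large subunit, lay between 156 and 216 CPM on CD and between 120 and 147 CPM on WD, a decrease without overlap (log2 fold change -0.44, SE 0.06, adjusted p = 8.6e-08). The counts of these 3 families thus moved strongly with the scaling.

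To determine where 129S1/SvImJ responded unlike the other backgrounds, its diet effect was tested against the mean effect of the other 6 strains in the same fit. That mean was taken over C57BL/6J, DBA/2J, A/J, WSB/EiJ, CAST/EiJ, and PWK/PhJ. The paper places PWK/PhJ in Mus musculus musculus, CAST/EiJ in Mus musculus castaneus, and the remaining strains in Mus musculus domesticus. The diet effect of 129S1/SvImJ differed in 1466 genes, 7.67% of those tested, with 771 above the mean (4.03%) and 695 below it (3.64%). Without WD replicate 4 the number was 871. Against C57BL/6J alone 917 genes differed (4.80%, with 466 above, or 2.44%, and 451 below, or 2.36%), or 563 when cohort was left out of the fit. Against PWK/PhJ alone 1835 differed (9.60%, with 922 above, or 4.82%, and 913 below, or 4.78%), or 1210 without WD replicate 4. These 3 comparisons share the 13 129S1/SvImJ mice, so they are not independent of each other. C57BL/6J and PWK/PhJ (cohorts 1 and 2) and WSB/EiJ (cohorts 6 and 7) shared no cohort with 129S1/SvImJ. A/J and CAST/EiJ shared cohort 3 with it, and DBA/2J cohort 5. A strain difference in the diet effect can thus not be told apart from a cohort difference in that effect.

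Several immune lists held more differences than the background. The 129S1/SvImJ effect lay above the mean of the other strains in 13 of 20 adhesion genes, 11 of 25 chemokine genes, 9 of 12 MHC class II genes, 6 of 13 T cell markers, 5 of 12 markers of lipid-associated macrophages, and 6 of 26 genes of Toll-like receptors and inflammasomes, against 4.03% of all genes. The effect lay below the mean in 1 chemokine gene and in none of the other lists just named. Fewer members differed from C57BL/6J alone, where 2.44% of all genes lay above: 7 of 20 adhesion genes, 7 of 25 chemokine genes, 2 of 12 class II genes, 5 of 13 T cell markers, 4 of 12 lipid-associated macrophage markers, and 2 of 26 Toll-like receptor and inflammasome genes. Class II genes themselves rose for 10 of 12 members in C57BL/6J and 7 of 12 in PWK/PhJ, and for 0 to 2 in the other 4 strains. Against PWK/PhJ, on the other hand, none of the 12 lipid-associated macrophage markers was above and 1 was below, while 4 of the 12 class II genes and 4 of the 13 T cell markers were above. For the matrix list 8 of 35 genes were below PWK/PhJ and none above. Over all genes 4.78% lay below PWK/PhJ and 4.82% above.

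Il1rn rose by 2.42 in 129S1/SvImJ and changed by -1.45 to 0.95 in the other strains, a difference of 2.29 (SE 0.32, adjusted p = 1.3e-06). Cd207, which encodes the lectin langerin, rose by 2.40 here and changed by -1.14 to 1.35 elsewhere (difference 2.28, SE 0.29, adjusted p = 8.7e-08). The effect on Ciita exceeded the mean by 1.57 (SE 0.32, adjusted p = 0.00076), that on Gzma by 2.69 (SE 0.53, adjusted p = 0.0006), and that on Itgax by 2.41 (SE 0.53, adjusted p = 0.002). Gpnmb, the largest increase among the genes named by the rule, did not differ detectably from the mean of the others (difference 2.84, SE 1.36, adjusted p = 0.20), and its log2 fold change in PWK/PhJ was 6.46. Cholesterol synthesis genes fell in every strain, with 10 to 20 of the 20 enzymes lower, and the effect in 129S1/SvImJ was above the mean, meaning a smaller fall, in 1 of 20 and below it in none. For Sqle the difference was 0.83 (SE 0.35, adjusted p = 0.13).

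Srebf1 moved in opposite directions. It fell by 0.71 in 129S1/SvImJ, while the log2 fold change was 0.55 to 1.20 in the other 6 strains (a called increase in all but WSB/EiJ), and the difference from their mean was -1.54 (SE 0.26, adjusted p = 4.9e-05). The fall in 129S1/SvImJ was not called by limma-voom in either cohort alone. It was -0.89 (adjusted p = 0.12) in cohort 3 and -0.56 (adjusted p = 0.25) in cohort 5. G6pc fell further here than on average in the other strains, where the log2 fold change was -2.13 to -0.39 (difference -1.95, SE 0.40, adjusted p = 0.0011). Ppp1r3b (difference -1.50, SE 0.30, adjusted p = 0.00077) and Bhlhe40, a clock-related repressor (log2 fold change -1.57 here and -0.93 to 0.16 elsewhere, difference -1.26, SE 0.22, adjusted p = 9e-05), also fell more. The feeding-related Rgs16 fell more by 2.10 (SE 0.62, adjusted p = 0.022), a call lost without WD replicate 4 or 5 (adjusted p = 0.059). Against PWK/PhJ alone the differences of G6pc, Ppp1r3b, and Rgs16 were not called (limma-voom adjusted p = 0.052, 0.084, and 0.19). Against C57BL/6J alone these 3 genes were called (adjusted p = 0.008, 0.013, and 0.0019).

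Differences were also called for the growth hormone targets Socs2 and Cish. Socs2, a feedback inhibitor that growth hormone induces through STAT5 (ENSMUSG00000020027, chr10:95385362-95417180, minus strand), lay between 6.42 and 28.2 CPM on CD (median 11.7) and between 19.4 and 38.5 CPM on WD (median 28.6). The ranges overlapped, with 3 of 6 WD mice above all CD mice. The log2 fold change was 1.22 (SE 0.41, adjusted p = 0.019, and 0.050 without WD replicate 6), against -0.82 to -0.41 in the other strains, a difference of 1.92 (SE 0.45, adjusted p = 0.0035), and no other strain had a called change. Cish, another such inhibitor gene, rose by 2.56 (SE 0.67, adjusted p = 0.0023), and its difference of 2.24 (SE 0.74, adjusted p = 0.046) was not called without the cohort term. In the list of 25 genes of the growth hormone axis and male-biased expression, 5 rose and 4 fell in 129S1/SvImJ (20.0% and 16.0%, near the shares of all genes, median -0.17). Of the 25, 4 lay above the mean of the other strains and none below, where 4.03% of all genes lay above. Igf1, the main hormone made under growth hormone, was not called (log2 fold change 0.06, SE 0.12, adjusted p = 0.73).

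Sult1e1, the estrogen sulfotransferase (ENSMUSG00000029272, chr5:87575969-87591594, minus strand), had the largest difference from the other strains among the genes named by the rule. It lay between 0.147 and 1.601 CPM on CD (median 0.425) and between 14.0 and 43.0 CPM on WD (median 23.2). The WD mice were all far above CD replicate 7, the highest CD mouse, and the log2 fold change was 5.79 (SE 0.62, adjusted p = 3.8e-11). The difference from the mean of the others was 4.44 (SE 0.81, adjusted p = 0.00019). It rose also in C57BL/6J, by 3.64, in DBA/2J, by 3.89, and in WSB/EiJ, by 1.23, and against C57BL/6J alone the difference of 2.15 (SE 1.33) was not called (adjusted p = 0.38).

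**Figure D4:**
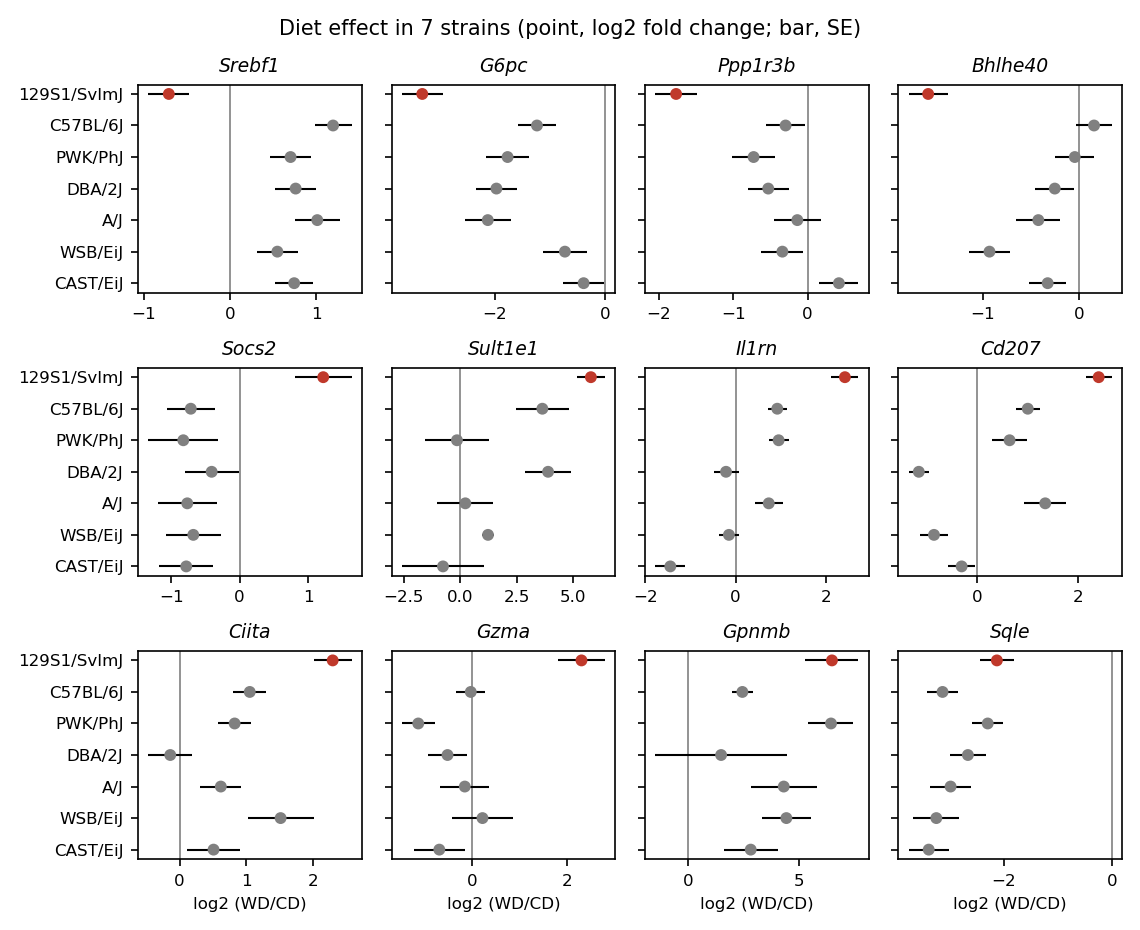
Diet effect on 12 genes in each of the 7 strains, as the log2 fold change WD minus CD (point) with its SE (bar), with 129S1/SvImJ in red. Srebf1 lies below 0 in 129S1/SvImJ (-0.71) and above 0 in the other strains, Socs2 the reverse (1.22), and Sqle lies below 0 in all 7.

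The 2 cohorts of 129S1/SvImJ repeated the comparison separately. Their diet effects differed in 2 genes of 19110 (0.0105%) in limma-voom and in 3 with edgeR. Ifi27, an interferon-inducible gene (ENSMUSG00000064215, chr12:103434211-103440239, plus strand), changed by 0.05 in cohort 3 and by -1.53 in cohort 5 (difference -1.58, adjusted p = 0.01). The 4 CD mice of cohort 5 were at 84.2 to 133.5 CPM, the 3 CD mice of cohort 3 at 24.7 to 44.65 CPM, and all 6 WD mice at 31.8 to 42.2 CPM, so the CD mice of cohort 5 stood apart. Ifi44l, another gene of that kind, changed by 0.78 in cohort 3 and by -0.22 in cohort 5 (difference -1.002, adjusted p = 0.042), with CD mice at 1.49 to 1.77 CPM in cohort 3 and 2.82 to 4.60 CPM in cohort 5. Of the 5622 genes called over both cohorts, 5604 had the same sign in each, which the choice of genes called in the pooled mice largely fixes. Among interferon-stimulated genes 4 of the 8 called members had the same sign in both cohorts, and the median of the 26 genes was 0.58 in cohort 3 and -0.53 in cohort 5.

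**Figure D5:**
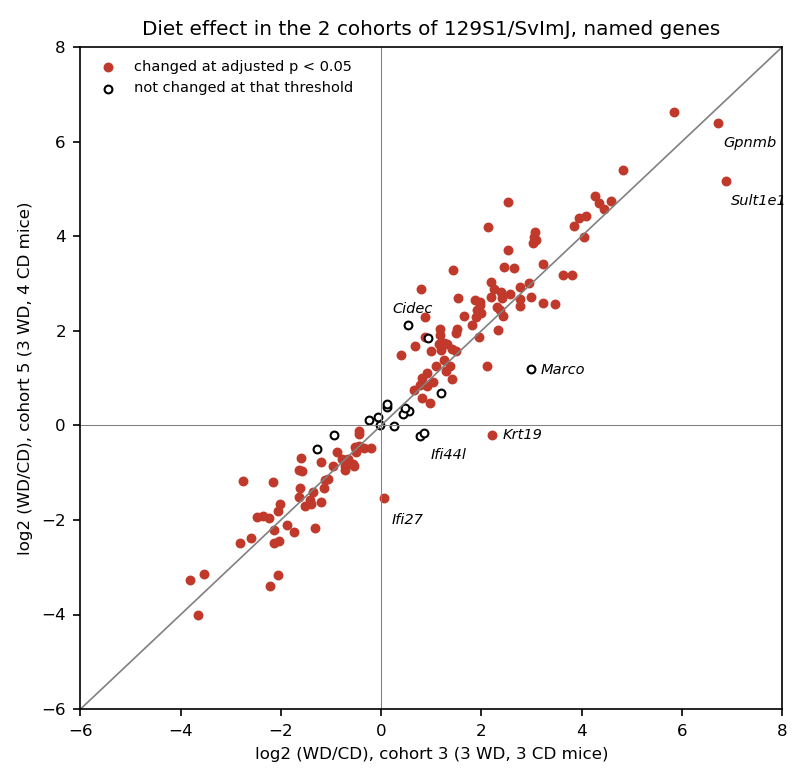
Diet effect (log2 fold change WD minus CD) in cohort 3, on the x axis, and in cohort 5, on the y axis, for the genes named here, filled red where limma-voom called the gene over both cohorts. The line marks equal effects. The plot describes genes partly chosen for their size of change. Ifi44l (0.78 and -0.22), Krt19 (2.22 and -0.19), and Ifi27 (0.05 and -1.53) are among the few genes with unlike signs in the cohorts.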

How the data were processed

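The authors sequenced liver RNA on the BGISEQ-500 and deposited raw counts, whole numbers of reads per gene and mouse without normalization. The submitters' processing notes name STAR 2.7.1a and the GRCm38 (mm10) build. All strains were mapped to the C57BL/6J reference, and whether counting used strand is not given in the sources used here. Of 53465 genes, edgeR's filterByExpr (minimum count 10) kept 19110. TMM factors and voom were computed over all 93 mice (R 4.3.3; edgeR 4.0.16; limma 3.58.1), the design holding 14 strain-by-diet means plus cohort within strain, and p-values were adjusted by Benjamini-Hochberg at 0.05. The pipeline was tested on simulated data for this comparison, where limma-voom recovered 182 of 200 genes changed 2-fold (91%) with 15 false calls. The 200 genes were drawn only from genes with higher read counts, and counts were simulated with the spread estimated in these data. The 91% therefore does not cover genes with few reads. Alternatives were edgeR's quasi-likelihood test, DESeq2 1.42.0, upper-quartile scaling, other filters, covariates and weights, each cohort alone, and each mouse left out.

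The genes named are the 15 largest changes each way among genes called without overlap at a mean log2 CPM of at least 1, up to 6 called members of each list or members a sentence turns on, the 10 largest differences each way from the other 6 strains, and genes called between cohorts. Not every candidate is described. The members and lists were chosen with earlier results of these data known. List symbols Ctgf and Tcf1 found no match. Promoters came from a RefSeq table (GRCm38.p6) without 5 of the 20 cholesterol enzymes and 5 of the 12 class II genes. Each replicate is a separate mouse, and counting error is large for genes under about 10 reads. A few genes of these lists count in the totals and are not reported by name here.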

Additional observations from a re-analysis of the deposited data

Results flagged for a closer look

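Single mice stood far from the rest of their diet group in 27 of the 302 groups of values checked for the genes named. The rule flags about 1 in 20 groups of normally distributed values. The CPM values were not transformed and all come from the same 13 mice, so that rate need not hold here. CD replicate 7 gave 7 of these values, WD replicate 6 gave 5, and CD replicate 2 gave 4. In CPM, CD replicate 7 stood high for Sult1e1 (1.601), Timd4 (15.89), Marco (6.195), Igfbp1 (164.6), Cyp2a5 (364.7), and Cyp7a1 (1010), and low for Scd1 (3335). WD replicate 6 was high for G6pc (409.8), Gm15690 (3.791), Igfbp1 (44.68), Tat (932.1), and Igf1 (632.9). CD replicate 2 was high for Cish (10.89), Bhlhe40 (398.3), Alb (105400), and Onecut1 (43.05). The other values were Cxcl2 in WD replicate 1 (0.4991), Il18 in WD replicate 1 (16.24), Cd3e in CD replicate 1 (0.3938), Ncr1 in CD replicate 3 (0.08508), Krt19 in WD replicate 2 (11.68) and CD replicate 6 (3.597), Elovl6 in WD replicate 5 (66.47), Bcl6 in WD replicate 3 (13.1), Saa2 in CD replicate 4 (57.37), Smpd3 in CD replicate 6 (4.122), and Onecut1 in WD replicate 3 (35.36).

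Diet effects that differed from those of other strains numbered 1466 genes against the mean of the other 6, 917 against C57BL/6J, and 1835 against PWK/PhJ, and 2 genes differed between the cohorts. As differences in log2 fold change from the mean of the other 6 strains, genes of leukocytes and their adhesion lay above for Mmp12 (3.25), Gzma (2.69), Itgax (2.41), Sele (2.37), Il1rn (2.29), Cd207 (2.28), Ccl2 (2.11), Ciita (1.57), and H2-Aa (1.34). Genes of sulfation, lipid, and other metabolism lay above for Sult1e1 (4.44), Treh (2.36), Osbpl3 (2.09), Cyp4a12b (2.02), Cyp3a11 (1.17), and Cd36 (1.17). Gbp11 (2.43), Cish (2.24), Tmc5 (1.97), and Socs2 (1.92) were above as well. Gbp11, of the interferon-inducible GTPases, is annotated as a polymorphic pseudogene, and its WD mice ranged from 9.11 to 58.21 CPM. Gm15690 (-2.39), Rgs16 (-2.10), G6pc (-1.95), Tcf24 (-1.63), Ranbp3l (-1.59), Srebf1 (-1.54), Slc38a5 (-1.53), Ppp1r3b (-1.50), Ttbk1 (-1.47), Gm45548 (-1.45), Bhlhe40 (-1.26), and Ifi27 (-0.69) lay below. A difference from that mean need not hold against each strain. Slc38a5 did not differ detectably from PWK/PhJ (difference 0.23, limma-voom adjusted p = 0.86). Tcf24 (-0.49, adjusted p = 0.7) and Tmc5 (-0.17, adjusted p = 0.95) did not differ detectably from C57BL/6J. Mmp12 was not called against PWK/PhJ, nor Osbpl3 and Cyp4a12b against C57BL/6J. Il1rn, Cd207, Treh, Gbp11, Ciita, Socs2, Srebf1, Ttbk1, and Bhlhe40 were called against each of these 2 strains. Between cohorts, cohort 5 minus cohort 3, the difference was -1.58 for Ifi27 and -1.002 for Ifi44l.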

How the results depend on the processing

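Genes changed by WD numbered 4702 to 8236 with another test, scaling, filter, weight, or covariate, against 5622, but 1441 in cohort 3 and 3594 in cohort 5 alone, which hold fewer mice. Leaving out each mouse gave 4712 to 5565, lowest without WD replicate 4. With sample quality weights 3497 genes differed from the other 6 strains, 3970 from PWK/PhJ, and 27 between the cohorts, against 1466, 1835, and 2; without the cohort term 563 differed from C57BL/6J, against 917. Leaving out each mouse gave 871 to 1537 against the other 6 strains, 645 to 966 against C57BL/6J, and 1210 to 1874 against PWK/PhJ. The log2 fold change of Ifi27 turned from -0.81 to 0.0521 in cohort 3 alone, and that of Krt19 from 1.09 to -0.19 in cohort 5 alone. For named genes 1528 of the values under alternatives kept direction and side of the threshold, 90 lost their call, 18 gained one (5 for Marco, 4 for Cidec), and 2 reversed. Calls that were lost when some single mouse was left out were those of Krt19, Cyp2b10, Bcl6, Hnf4a, Alb, Onecut1, Srebf1, Socs2, Hmgcs1, and Nqo1. The causes were not tested. The mitochondrial share differed by -0.0714 to 0.156 percentage points when each mouse was left out. Leave-one-out fits for the strain differences were added after seeing the data. No paired analysis was possible because the replicate numbers only follow sample order.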

Other observations

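Interferon-stimulated genes did not follow the other immune lists. Of 26 such genes, 3 rose and 5 fell in 129S1/SvImJ (median log2 fold change -0.15), a share near that of all genes (15.0% higher, 14.4% lower), whereas 21 rose and none fell in C57BL/6J (median 0.67). The diet effect in 129S1/SvImJ lay below that in C57BL/6J for 11 of the 26 genes and above it for none, where 2.36% of all genes lay below. The median in 129S1/SvImJ was 0.58 in cohort 3 and -0.53 in cohort 5, where the CD mice were high for Ifi27 and Ifi44l, and the part of that cohort in the strain difference was not tested. Major urinary protein genes, which growth hormone and androgens control in male liver and which share reads between close paralogs, rose for 3 of 21 members here (14.3%, near the 15.0% of all genes, median 0.42). In C57BL/6J 14 of 21 rose (median 2.68). The effect here lay below C57BL/6J in 6 of the 21, where 2.36% of all genes lay below.

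Of 19 circadian clock genes, none rose and 2 fell (median -0.12), where 15.0% of all genes rose and 14.4% fell. In the same list 8 lay below and 1 above the effect in C57BL/6J, where 2.36% of all genes lay below and 2.44% above. Of 21 genes of endoplasmic reticulum chaperones and the unfolded protein response, 1 rose and 1 fell (4.76% each, median -0.03), fewer than among all genes. In the integrated stress response list 4 of 21 rose (19.0%, near the 15.0% of all genes) and 1 fell. Among the 4 were Chac1, a glutathione-degrading enzyme gene, higher by 1.76 (SE 0.33, limma-voom adjusted p = 2.3e-05), and the transcription factor gene Atf3, higher by 1.90 (SE 0.64, limma-voom adjusted p = 0.018). Lysosomal genes rose for 14 of 32 members and fell for 2 (median 0.11). Lyve1, a hyaluronan receptor of sinusoidal endothelium and some macrophages, lay between 2.94 and 6.77 CPM on CD and between 10.6 and 21.2 CPM on WD, with no overlap (log2 fold change 1.56, SE 0.24, limma-voom adjusted p = 5.9e-07). Of 15 endothelial markers, 4 rose (26.7%) and 2 fell (13.3%), against 15.0% and 14.4% of all genes.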
